A study of Mus musculus with 7 samples.

Results

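The endothelial genes described here are 10 genes that mark the cells lining blood vessels: Kdr, Flt1, Tek, Tie1, Pecam1, Cdh5, Cldn5, Emcn, Eng and Vwf. They were taken as a named list, and every probe of each gene was kept. The 10 genes had 13 probes on the array and were part of 17047 named genes. All 13 probes were read on 7 one-colour Agilent arrays, each of which measured total RNA from 1 mouse sample.

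The study grew stomach-type tissue from mouse embryonic stem (ES) cells and set it beside adult and embryonic organs. The ES cells had been kept in serum with LIF, a cytokine that holds them undifferentiated, and the labels name no cell line. Tissue of culture day 42 had been grown with EGF, FGF10 and Wnt3a, with Noggin, which blocks BMPs, and with R-spondin1, which strengthens Wnt signals. Tissue of culture day 46 came from the same kind of culture and had then spent 4 days with the signalling proteins Shh and Bmp4. Which of the first factors had been withdrawn is not given in the sources used here. Adult stomach, esophagus, lung and intestine came fresh from ICR mice, an outbred strain, and the stomach primordium came from ICR embryos of day 9.5 (E9.5). No age of the adults is given, nor whether several animals or cultures were pooled. Each group was 1 array, so no test was possible, and every difference below is a size without a replicate check.

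Endothelial cells line every vessel, and blood-borne oxygen reaches a tissue through them. They receive growth signals from the VEGF family through Kdr and Flt1, and stabilising signals from the angiopoietins through Tek, whose partner Tie1 has no ligand of its own that is firmly established. Cdh5, Pecam1 and Cldn5 join neighbouring endothelial cells, Emcn coats their surface, Eng assists TGF-beta and BMP receptors, and Vwf is stored in the cells and tethers platelets when a vessel is injured. The lung is an organ rich in capillaries.

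Promoter sequence from RefSeq (GRCm38.p6) was matched to 7 of the 10 genes by symbol. ETS-family factors are regulators shared by many endothelial genes, so 4 promoters are shown with their ETS-type letters. Each is the 250 bases before the gene's start, 5' to 3' on the gene's strand, with AGGAAG or CCGGAA in capitals on either strand (CTTCCT and TTCCGG are their reverse complements). Kdr lies at chr5:75978456-75978705 on the minus strand, Flt1 at chr5:147726012-147726261 (minus), Tie1 at chr4:118489850-118490099 (minus) and Eng at chr2:32646345-32646594 (plus).
Kdr: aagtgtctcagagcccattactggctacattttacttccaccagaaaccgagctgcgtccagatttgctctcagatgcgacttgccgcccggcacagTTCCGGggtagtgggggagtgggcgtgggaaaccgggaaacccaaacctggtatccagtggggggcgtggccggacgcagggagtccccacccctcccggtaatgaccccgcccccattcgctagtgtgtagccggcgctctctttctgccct
Flt1: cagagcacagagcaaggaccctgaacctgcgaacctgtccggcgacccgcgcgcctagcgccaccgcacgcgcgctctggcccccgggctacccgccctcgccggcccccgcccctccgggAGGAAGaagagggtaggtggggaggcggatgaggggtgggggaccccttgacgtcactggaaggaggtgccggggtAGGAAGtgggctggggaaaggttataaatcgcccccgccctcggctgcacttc
Tie1: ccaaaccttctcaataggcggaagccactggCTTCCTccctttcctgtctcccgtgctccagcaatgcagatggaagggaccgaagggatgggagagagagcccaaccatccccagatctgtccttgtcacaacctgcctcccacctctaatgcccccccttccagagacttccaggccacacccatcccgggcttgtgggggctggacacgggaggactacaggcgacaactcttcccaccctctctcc
Eng: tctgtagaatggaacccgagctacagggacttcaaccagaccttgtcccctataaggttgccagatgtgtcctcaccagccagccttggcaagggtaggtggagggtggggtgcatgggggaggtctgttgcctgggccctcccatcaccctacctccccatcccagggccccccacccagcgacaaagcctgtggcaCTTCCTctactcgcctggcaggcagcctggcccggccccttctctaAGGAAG
In windows from 250 bases before to 50 after the start, AGGAAG was present in 4 of the 7 matched promoters (Flt1, Tie1, Emcn and Eng) and in 35.4% of all 32851 promoters. CCGGAA was present in that of Kdr, and in 14.9% of all. Either letter string was in 5 of 7, against 45.2% of all promoters. The GATA-type string AGATAA was found for Tek alone among the 7 (11.2% of all promoters), and the SOX-type string ACAAAG for Tek and Eng (18.7%). Both strands were searched, and the windows of Cldn5 held none of these 4 strings. Such matches describe letters only and were not tied to any factor by these data.

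Each level below is a log2 signal minus the 75th percentile of its own array, so that 0 is the 75th percentile and 1 unit is a 2-fold step. Between 77.8% and 90.5% of named genes were well above background on an array, and the median level of all named genes lay between -1.22 and -0.86. That share was 78.4% on day 42 and 90.5% on day 46. The lowest level above background was -5.57 on day 42 and -7.13 on day 46, so a gene above background on day 46 alone need not differ. Spots of the same probe differed by a median standard deviation (SD) of 0.06 to 0.10 on an array. The spike-in control probes stood apart on the day 46 array, at -2.91 (log2, before scaling) against the median of the other 6 arrays, and were at 1.13 on the day 42 array and between -0.26 and 0.47 on the others. The 4 adult organs shared 1 slide, whereas day 42, day 46 and E9.5 were each on a slide of their own, so in any comparison beyond the adult organs the slide and the group cannot be told apart. Tissue labels were checked against marker genes. Lung had Sftpc, a surfactant protein, at 9.71, stomach had the acid pump subunit Atp4b at 9.94, and intestine had the fatty acid carrier Fabp2 at 10.01. Esophagus had the squamous keratin Krt4 at 6.61, but also Sftpc at 5.12 and the airway protein Scgb1a1 at 5.44, against -0.74 and 2.91 in stomach, and the part of this in the esophagus values was not tested. E9.5 stomach had Barx1, a factor of stomach mesenchyme, at 0.98, against -5.78 on day 46, while on day 42 it was not above background. The cultures had the mucous-cell gene Tff1 at 4.36 (day 42) and 6.19 (day 46), and Atp4b at -4.84 and -3.87.

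Kdr, the main signalling receptor for VEGF-A, was at -4.80 on day 42, -3.53 on day 46, 2.91 in E9.5 stomach, 0.96 in adult stomach, 1.23 in esophagus, 4.71 in lung and -0.43 in intestine. Both cultures were below all 5 tissues, and E9.5 stomach was second only to lung. Flt1, a VEGF receptor that also acts as a decoy, was at 0.13, 0.58, 1.69, 2.35, 2.74, 5.42 and -1.03 on the same arrays by its brighter probe. Intestine, and not a culture, was the lowest array for Flt1. Its other probe gave -2.59, -2.10, -0.80, -0.09, 0.21, 3.15 and -4.04, which is the same order of arrays.

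Tek, the angiopoietin receptor, was at -5.42 on day 42, -6.22 on day 46, -0.93 in E9.5 stomach, -2.29 in adult stomach, -0.03 in esophagus, 2.83 in lung and -3.56 in intestine. Its partner receptor Tie1 was at -7.80 on day 42, which was not well above background, and at -6.10, -0.37, -1.96, -0.79, 2.08 and -4.32 on the other arrays in that order. For both Tie receptors the cultures held the lowest 2 places, and E9.5 stomach was above adult stomach.

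Of the junction genes, Cdh5 (VE-cadherin) was at -3.32 on day 42, -3.08 on day 46, 1.23 in E9.5 stomach, -0.72 in adult stomach, 0.59 in esophagus, 4.21 in lung and -2.20 in intestine by its brighter probe. The dimmer Cdh5 probe gave -6.22 (not well above background), -5.32, -1.69, -3.99, -2.33, 1.41 and -5.33. Both probes put lung first and E9.5 stomach second, and by the dimmer one day 46 and intestine were at nearly the same level. Pecam1, an adhesion molecule that platelets and leukocytes also carry, was at -6.40 on day 42 (not well above background), -5.38, -1.40, -1.13, 0.39, 2.67 and -2.64. Cldn5, a tight-junction protein of endothelium, was at -3.37, -3.23, 1.73, 0.08, 1.36, 5.24 and -1.47. Neither gene on either culture array came up to the level of any tissue.

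Emcn, a sialomucin of capillary and venous endothelium, was at -1.87 on day 42, -2.75 on day 46, 2.71 in E9.5 stomach, 1.25 in adult stomach, 2.05 in esophagus, 3.08 in lung and -0.63 in intestine. It was the gene with the smallest lead of lung, 0.37 over E9.5 stomach. Vwf was at -2.74, -3.21, 0.39, 0.85, 3.13, 5.96 and -0.19 by its brighter probe and at -5.12, -5.39, -1.35, -0.93, 1.15, 3.97 and -2.46 by the other. Its second-highest array was esophagus, and its levels in the adult organs except intestine were above that in E9.5 stomach. Eng was at -0.07 on day 42, -0.34 on day 46, -0.10 in E9.5 stomach, -0.13 in adult stomach, 1.03 in esophagus, 4.05 in lung and -1.63 in intestine. Both cultures, E9.5 and adult stomach were within 0.27 of each other for Eng, and intestine was lowest. Eng and Flt1 were the only members whose culture levels lay above that of intestine.

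**Figure D1:**
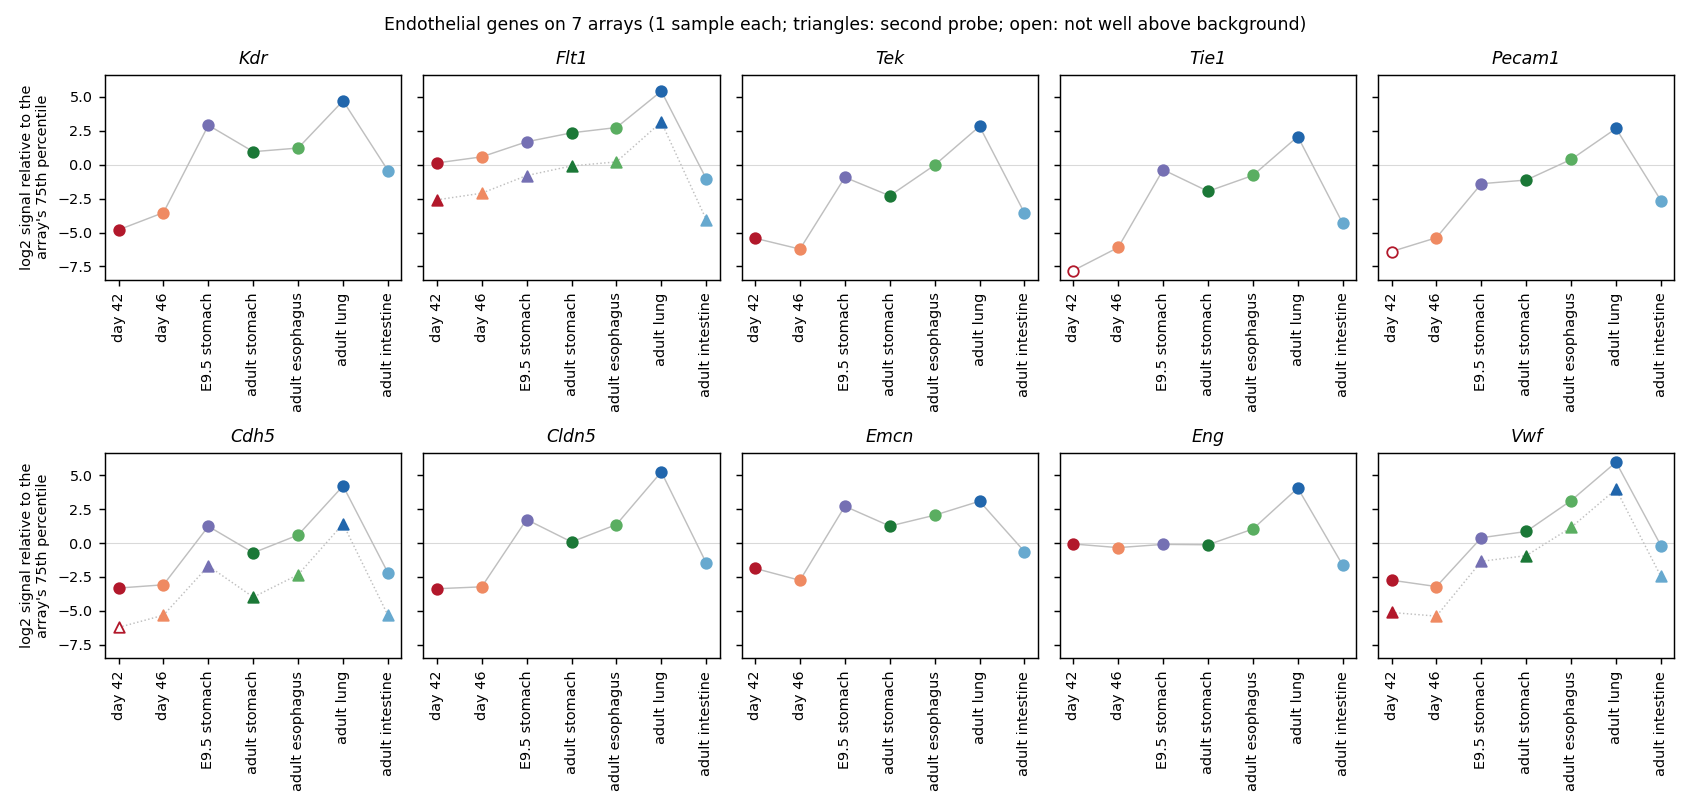
Log2 signal relative to the array's 75th percentile (vertical axis) for each of the 10 genes on the 7 arrays (horizontal axis), 1 point per probe and array. Lung is the highest array in all 10 panels, the 2 cultures are the lowest in most, and the Eng panel is nearly flat from day 42 to adult stomach.

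Across the 10 genes, the median level was 4.13 in lung, 1.13 in esophagus, 0.81 in E9.5 stomach, -0.03 in adult stomach, -1.55 in intestine, -3.22 on day 46 and -3.35 on day 42. Lung held the highest level of all 10. Esophagus was second for 5 and E9.5 stomach for the other 5. Day 42 was lowest for 5 genes, day 46 for 3 (Tek, Emcn and Vwf) and intestine for 2 (Flt1 and Eng). Of those lowest on day 42, Tie1 and Pecam1 were not above background there. Their differences between day 46 and day 42 are only bounds, of 0.00 and 0.19, so day 42 is not shown to be below day 46 for Tie1. The order of neighbouring medians was not the same under all scalings: day 42 came out above day 46 with median centring, quantile normalization and normexp, and E9.5 stomach above esophagus with median centring. With the mean over a gene's probes, adult stomach (-0.09) came out above E9.5 stomach (-0.17).

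Probes of the same gene bind different stretches of a transcript and so differ in brightness, and the 3 genes with 2 probes show how far the differences between arrays depend on the probe. The gap between the Flt1 probes was 2.59 on average and ranged from 2.27 to 3.0 over the 7 arrays (SD 0.24). That of Cdh5 was 2.88 (2.24 to 3.27, SD 0.32) and that of Vwf 2.05 (1.74 to 2.38, SD 0.24). Over all genes with several probes, the log2 difference between 2 arrays had an SD between probes of 0.48 to 0.93, depending on the pair of arrays. This SD is a spread between probes that bind different stretches, not a pure technical error. It was 0.48 for adult stomach and esophagus and 0.93 for day 42 and esophagus. It measures no variation between animals, cultures or slides. Neighbouring arrays were nearer than this SD for several genes: adult stomach and esophagus for Kdr and Flt1, E9.5 stomach and esophagus for Tie1, Cdh5 and Cldn5, lung and E9.5 stomach for Emcn, and E9.5 and adult stomach for Pecam1, Eng and Vwf. The same held for E9.5 stomach and intestine in Vwf and for intestine and day 46 in Cdh5. For Eng it also held for day 42 and E9.5 stomach and for adult stomach and day 46. Day 42 and day 46 differed by less than it for Flt1, Cdh5, Cldn5, Vwf and Eng.

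The comparison of each culture with adult stomach asks how far the grown tissue matched the organ it models. Relative to adult stomach, day 42 had 9 of the 10 endothelial genes lower by 2-fold or more and none higher by that much, where 22.6% of 14819 named genes were lower and 20.2% higher. The median log2 difference over the 10 was -3.29, against 0.00 over all named genes. Kdr was the farthest below, by 54.3-fold (log2 difference -5.76, SD between probes 0.87). Tie1 and Pecam1, not above background on day 42, were at least 12.2-fold and at least 21.7-fold lower, since a dim gene allows only a bound. Differences of the others were -2.22 (Flt1), -3.13 (Tek), -2.60 (Cdh5), -3.45 (Cldn5), -3.12 (Emcn) and -3.58 (Vwf). Eng differed by 0.07. In bulk RNA, fewer endothelial cells and less of these RNAs per cell cannot be told apart. Median centring moved the shares of all genes to 15.4% lower and 32.4% higher, and left the members' count at 9 lower and 0 higher.

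On day 46 the same 9 genes lay 2-fold or more below adult stomach and none lay that far above it, beside 22.1% lower and 19.4% higher of 15727 named genes (25.2% and 12.3% with normexp background correction). Their log2 differences were -4.49 for Kdr, -1.77 for Flt1, -3.93 for Tek, -4.14 for Tie1, -4.25 for Pecam1, -2.36 for Cdh5, -3.31 for Cldn5, -4.00 for Emcn and -4.05 for Vwf (SD between probes 0.85). Eng was at -0.21. Both comparisons use the same adult stomach array. The median over the 10 was -3.97, and -2.80 with normexp.

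Against E9.5 stomach, day 42 was again at least 2-fold lower for 9 genes and higher for none, beside 25.9% lower and 28.1% higher of 14695 named genes. Kdr was 210-fold lower (log2 difference -7.71, SD between probes 0.89). Cldn5 differed by -5.10, Emcn by -4.58, Cdh5 by -4.56, Tek by -4.49, Vwf by -3.13 and Flt1 by -1.56. Tie1 was at least 36.7-fold and Pecam1 at least 18.0-fold lower. Eng differed by 0.04, which, like its difference from adult stomach, is under the SD between probes. The median over the 10 was -4.52, against -0.03 over all named genes.

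**Figure D2:**
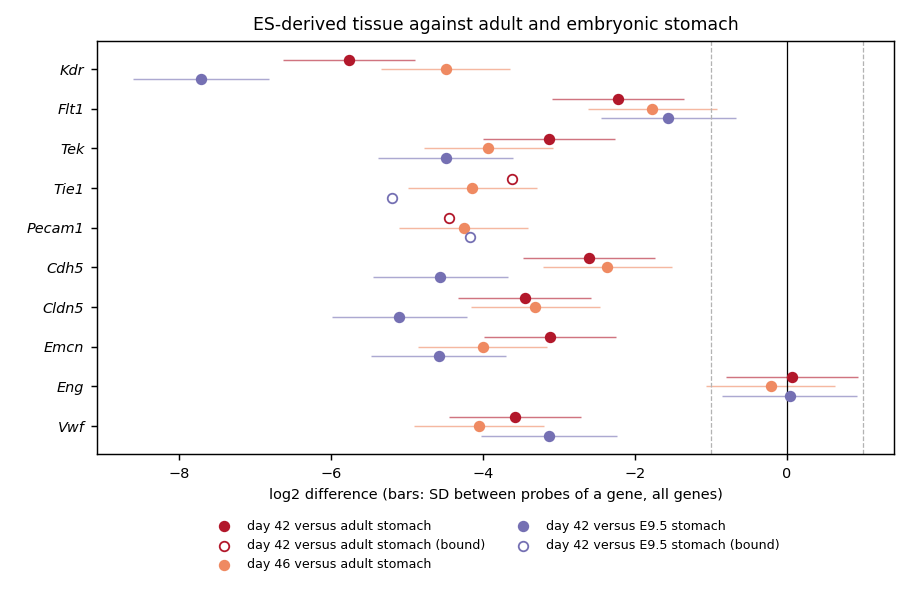
Log2 differences (horizontal axis) of the 10 genes (vertical axis) for day 42 and day 46 against adult stomach and for day 42 against E9.5 stomach. Bars are the SD between probes of a gene over all genes, open points are bounds, and dashed lines mark 2-fold; Eng sits at 0 and Kdr lies farthest to the left.

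Markers of other cell types moved between these arrays as well. Of all named genes, 20.2% were at least 2-fold higher and 22.6% lower on day 42 than in adult stomach. Of 8 leukocyte and macrophage genes, 4 were at least 2-fold higher and 1 lower on day 42 than in adult stomach, with the macrophage receptor Adgre1 at 4.68 against 0.74 and Cd14 at 3.95 against 0.29, and Cd3e of T cells lower, at -4.13 against -1.84. Their summed signal (relative to the 75th percentile) was 49.4 on day 42 and 34.6 on day 46, against 6.70 in adult stomach, 0.584 in E9.5 stomach, 11.1 in esophagus, 22.0 in lung and 9.30 in intestine. All 8 were above background on both cultures, and Pecam1 was above it on day 46 (-5.38) and not on day 42. The lowest level above background was higher on day 42 (-5.57) than on day 46 (-7.13). Macrophages can carry Eng and leukocytes Pecam1, and their part in the Eng and Pecam1 levels was not tested. Of 10 pericyte and vascular smooth muscle genes, which mark cells around vessels, 6 were lower and 2 (Pdgfrb and Kcnj8) higher on day 42 than in adult stomach. Their summed signal was 103 on day 46, 35.9 in E9.5 stomach, 673 in adult stomach, 308 in esophagus, 114 in lung and 1380 in intestine, where visceral muscle shares Acta2, Tagln and Myh11. That of the 10 endothelial genes was 2.74 on day 42, 2.90 on day 46, 26.9 in E9.5 stomach, 14.7 in adult stomach, 30.9 in esophagus, 230 in lung and 3.96 in intestine.

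The ligands of these receptors were split between directions on the cultures. Of 8 VEGF and angiopoietin ligand genes, 4 were at least 2-fold higher on day 42 than in adult stomach, and 2 were lower. The shares of all named genes were 20.2% and 22.6%. Vegfa, which drives vessel growth, was at 4.78 on day 42, 5.43 on day 46, 1.18 in E9.5 stomach, 1.55 in adult stomach, 2.09 in esophagus, 5.12 in lung and 2.79 in intestine. It was thus 3.23 (log2) above adult stomach on day 42 and 3.88 on day 46, at levels otherwise seen in lung. Pgf, a ligand of Flt1, was at 2.22 on day 42 and 1.51 on day 46, and between -2.90 and -1.55 in the 5 tissues. Vegfc, better known for lymphatic vessels, was 2.47 above adult stomach on day 42, and Angpt4 was at least 16.4-fold higher. Angpt2, a ligand of Tek made by endothelium itself, was 2.64 below adult stomach and Vegfb 1.08 below. On day 46, 5 were higher (Vegfa, Pgf, Vegfc, Angpt4 and, by at least 2.01-fold, Angpt1) and the same 2 lower. The shares of all named genes there were 19.4% and 22.1%.

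The other receptors were mixed. Ptprb, an endothelial phosphatase that acts on Tek, was 5.09 lower on day 42 than in adult stomach and 3.76 lower on day 46. The VEGF co-receptors Nrp1 and Nrp2, which neurons and mesenchyme also carry, differed by 0.80 and 0.82 on day 42, and Flt4, of lymphatic endothelium, was not above background there. Against E9.5 stomach, 3 of the 4 (Ptprb, Flt4 and Nrp2) were at least 2-fold lower on day 42, beside 25.9% of all named genes. Of 6 measured genes of the ALK1 and endoglin pathway, 3 were lower on day 42 than in adult stomach (Smad9, Smad6 and Bmpr2) and 2 higher (the type I receptor Acvrl1, by 1.33, and Tgfbr2, by 1.20). Of all named genes, 22.6% were lower and 20.2% higher in that comparison. With median centring the pathway count was 1 lower and 2 higher, beside 15.4% and 32.4% of all named genes.

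**Figure D3:**
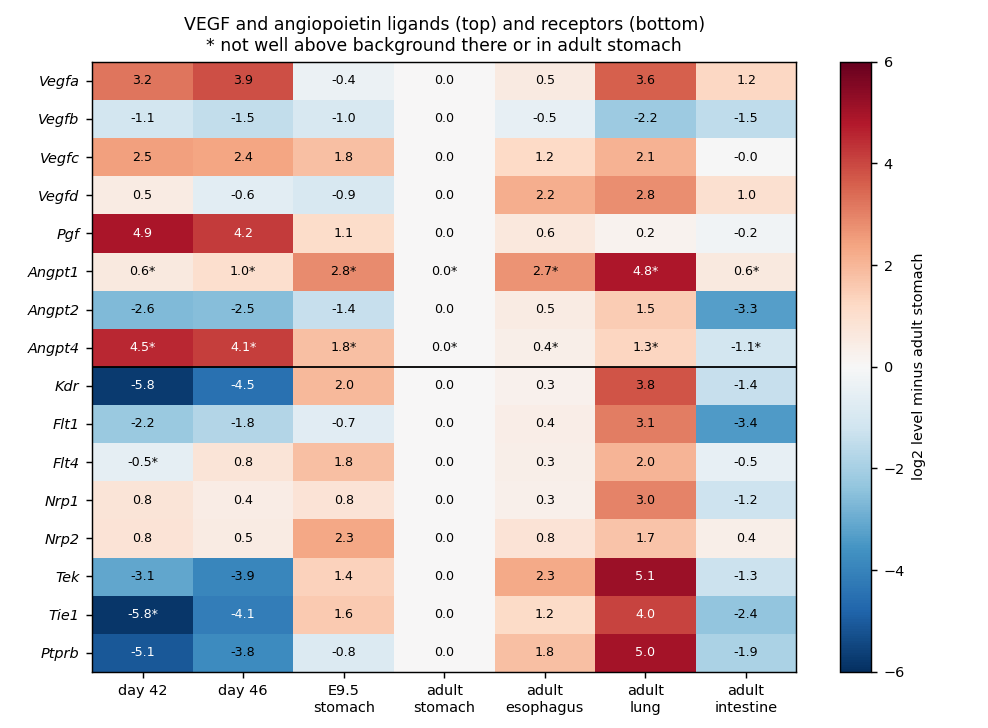
Log2 level minus that in adult stomach (colour and printed value) for 8 ligand genes (top) and 8 receptor or co-receptor genes (bottom) on the 7 arrays. On the cultures Vegfa, Vegfc, Pgf and Angpt4 are above adult stomach while Kdr, Flt1, Tek, Tie1 and Ptprb are below; values with an asterisk involve a signal not well above background and are not bounds.

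Further endothelial genes, from lists drawn up for the same cells, were set beside the 10. Of all named genes, 22.6% lay 2-fold or more below adult stomach and 20.2% above it on day 42. On day 46 these shares were 22.1% and 19.4%. Of 22 measured endothelial surface and signalling genes, 16 lay 2-fold or more below adult stomach on day 42 and 0 above it (median -1.52), and 13 were lower and 0 higher on day 46 (median -1.98). The matrix protein Mmrn2 was 5.76 lower on day 42, the diaphragm protein Plvap 4.21 lower and the guidance receptor Robo4 3.90 lower. Clec14a was at least 18.2-fold lower on day 42 and at least 52.8-fold lower on day 46. Of 10 measured endothelial transcription factors, 5 were lower on day 42 (Sox18, at least 24.7-fold, Sox7, Mecom, Sox17 and Erg) and 1 was higher, Hhex, which endoderm also uses, by 2.47. On day 46 the 10 were split, with 4 lower (Sox18, Erg, Sox7 and Mecom) and 3 higher (Hhex, Lmo2 and Gata2) than in adult stomach (median 0.05). Neither Erg nor Etv2 was above background on either culture array. Of 12 arterial, venous and capillary genes, 4 were lower on day 42 (Car4, Ednrb, Gja4 and Dll4) and 1, Apln, was higher by 2.80. With median centring that split was 4 lower and 5 higher, beside 15.4% and 32.4% of all named genes. On day 46, 4 of these 12 were lower (Ednrb, Gja4, Car4 and Gja5) and 3 higher (Apln, Efnb2 and Hey1) than in adult stomach (median -0.07). Among so few genes, the splits of these 12 do not stand apart from the shares of all named genes.

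The step from day 42 to day 46 sets tissue that had spent 4 days with Shh and Bmp4 beside tissue that had not. The added factors, any withdrawn ones, the 4 further days of culture and the slide cannot be told apart in it. Of the 10 genes, Kdr alone was at least 2-fold higher on day 46 (log2 difference 1.27, SD between probes 0.51), and 0 were at least 2-fold lower, where 9.0% of 15453 named genes were higher and 6.47% lower. Kdr was at 0.87 with median centring, 0.67 with quantile normalization and 0.34 with normexp, none of which is 2-fold. Flt1 differed by 0.45, Cdh5 by 0.24, Cldn5 by 0.14, Eng by -0.27, Vwf by -0.47, Tek by -0.81 and Emcn by -0.88. Tie1 and Pecam1 were above background on day 46 and not on day 42, and their differences are lower bounds of 0.00 and 0.19, so that a 2-fold step is neither shown nor excluded. Tek and Emcn passed 2-fold lower with median centring (-1.21 and -1.28) and with quantile normalization (-1.76 and -1.07). The shares of all genes also depended on the scaling, with 18.0% lower and 3.86% higher under median centring, 6.78% and 4.65% under quantile normalization and 5.25% and 3.12% under normexp. The median of the 10 was 0.07, which takes the bounds of Tie1 (0.00) and Pecam1 (0.19) as values.

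Some partners of the 10 genes differed more in that step. Of all named genes, 9.0% were at least 2-fold higher and 6.47% lower on day 46. Of 9 measured endothelial transcription factors, 5 were at least 2-fold higher on day 46 and none lower: Lmo2 by 2.28, Sox17 by 2.0, Gata2 by 1.64, Sox7 by 1.62 and Mecom by at least 3.61-fold. The count was 2 with normexp. Of 7 measured genes of the ALK1 and endoglin pathway, 2 were at least 2-fold higher on day 46 and 0 lower (median 0.0). These 2 were Smad6 and Id1, direct targets of BMP signalling, which were 2.87 and 2.10 higher. Acvrl1 of the same list differed by -0.93. The cause was not tested. Ptprb was 1.34 higher and Flt4 at least 2.28-fold higher, although neither passed 2-fold with median centring, quantile normalization or normexp. Sox17 and Gata2 are also made by endoderm and by blood cells respectively, and the source of these RNAs was not tested.

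The comparison of E9.5 with adult stomach sets the first vessels of the organ beside mature ones. Of the 10 genes, 6 were at least 2-fold higher in E9.5 stomach and none was at least 2-fold lower, where 27.3% of 15090 named genes were higher and 29.8% lower (38.9% and 22.4% with median centring). These 6 were Kdr (1.95), Cdh5 (1.95), Cldn5 (1.65), Tie1 (1.59), Emcn (1.46) and Tek (1.36), with an SD between probes of 0.63. None of them reached 4-fold. Eng differed by 0.03, Pecam1 by -0.27, Vwf by -0.45 and Flt1 by -0.66, and with median centring these 4 were at 0.60, 0.30, 0.12 and -0.09. The median over the 10 was 1.41, against -0.03 over all named genes. Both Flt1 probes were lower in the embryo at the 75th percentile scaling.

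Other endothelial genes separated E9.5 stomach further. Etv2, an ETS factor that starts the endothelial and blood lineages in the embryo, was at 0.41 in E9.5 stomach and not above background on any of the other 6 arrays, at least 106-fold above adult stomach and at least 62.8-fold above day 42. Of 11 measured endothelial transcription factors, 6 were higher in E9.5 stomach (Etv2, Fli1, Gata2, Erg, Hhex and Lmo2) and 2 lower (Mecom and Klf2). Of 12 arterial, venous and capillary genes, 9 were higher, among them the arterial genes Gja5 and Hey1 (3.17 each) and Efnb2 (2.32). Of all named genes, 27.3% were higher and 29.8% lower in E9.5 stomach. The surface genes were split, 9 of 22 higher and 4 lower, with Aplnr higher by 2.16. Those lower were the anticoagulant receptor Thbd (by 3.76), the lipase carrier Gpihbp1 (by 2.66), Selp and Adgrl4. With normexp the transcription factor count was 2 higher and 2 lower. Leukocyte genes were low in the embryo, with 6 of 8 below adult stomach by 2-fold or more and Ptprc at -6.24 against -0.27. Globins were high, with a summed erythroid signal of 205 in E9.5 stomach against 2.03 in adult stomach, and 8 of 10 pericyte and smooth muscle genes were lower. Their part in the endothelial values was not tested.

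Among adult organs, all 10 genes were at least 2-fold higher in lung than in each of stomach, esophagus and intestine, beside 18.0%, 17.1% and 21.6% of all named genes. These 3 comparisons share the lung array. Over stomach, the differences ran from 1.83 for Emcn to 5.16 for Cldn5, with Tek at 5.12, Vwf at 5.12, Cdh5 at 4.93, Eng at 4.18, Tie1 at 4.04, Pecam1 at 3.80, Kdr at 3.75 and Flt1 at 3.07 (median 4.11, SD between probes 0.56). Over esophagus they ran from 1.03 for Emcn to 3.88 for Cldn5 (median 2.86, SD 0.52), and over intestine from 3.71 for Emcn to 6.71 for Cldn5 (median 6.27, SD 0.60). Emcn had the smallest and Cldn5 the largest difference in all 3. In lung against intestine, 29.5% of all genes were lower and 17.0% higher under median centring. The 4 arrays were on 1 slide.

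Most endothelial genes outside the 10 had the same direction. Of 22 measured surface and signalling genes, 21 were higher in lung than in stomach (median 3.62), with the sphingolipid receptor S1pr1 at 5.45, Icam2 at 5.22 and Gpihbp1 at 5.06. Of 12 arterial, venous and capillary genes 11 were higher, led by Car4, an enzyme of lung capillaries, at 5.38. Gata2 was 6.19 and Erg 4.65 higher, among 8 of 10 transcription factors. Platelet genes were higher as well, in 5 of 6, with a summed signal of 30.7 in lung against 5.05 in stomach, 12.0 in esophagus and 7.96 in intestine, and the summed erythroid signal was 35.1 against 2.03, 21.9 and 6.01. Of 8 leukocyte genes, 5 were higher. Platelets carry Vwf and Pecam1, and the part of blood in these differences was not tested. Pericyte and smooth muscle genes went the other way, 7 of 10 lower in lung than in stomach and 2 higher, beside 21.8% and 18.0% of all named genes.

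**Figure D4:**
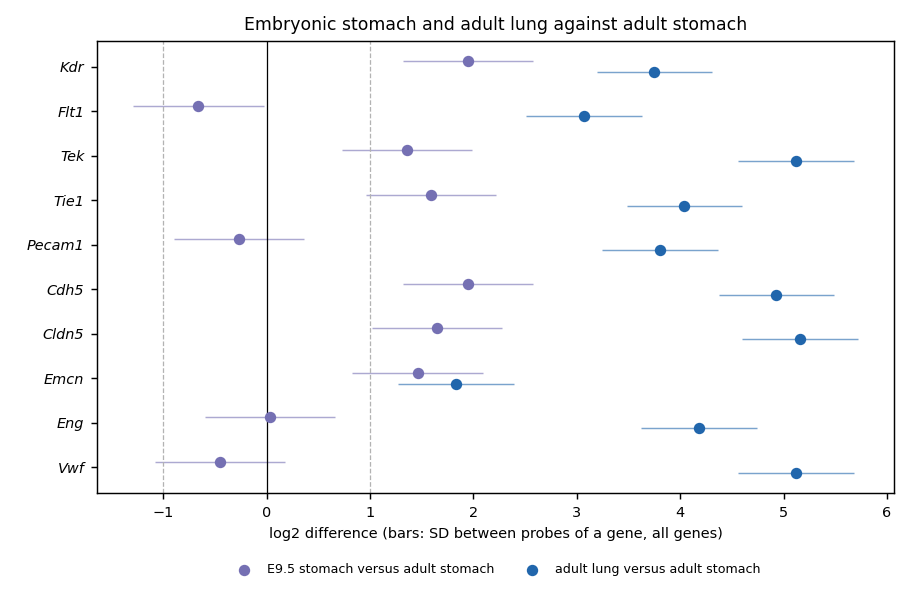
Log2 differences (horizontal axis) of the 10 genes (vertical axis) for E9.5 stomach and adult lung, each against the same adult stomach array, with bars for the SD between probes of a gene over all genes. All 10 lung points lie above 1 (2-fold), while the E9.5 points of Flt1, Pecam1, Eng and Vwf lie between -1 and 1.

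Each gene's 7 levels, minus their mean, were compared with the median profile of the 10. That profile is made from these same 10 genes, so their nearness to it is partly built in. Cldn5 lay nearest to it, with a root mean square (RMS) difference of 0.28 (log2), followed by Cdh5 (0.45), Tek (0.47), Pecam1 (0.74), Tie1 (0.80), Vwf (0.87), Kdr (0.89) and Emcn (0.91). Flt1 was at 1.35 and Eng farthest, at 1.75. Of 8983 other genes that were above background on at least 5 arrays and had a range of at least 2, 58 lay nearer than Flt1 and 200 nearer than Eng. The range over the 7 arrays was 9.88 for Tie1 and 9.51 for Kdr, the widest of the 10, and 5.67 for Eng and 5.83 for Emcn, the narrowest. That of Tie1 rests on its day 42 level of -7.80, which was not above background, so its first place is not firm. The profiles, too, use levels not above background as they were read. The 10 other genes nearest to the median profile were Sox18 (0.41), Robo4 (0.42), Icam2 (0.44), Arhgef15 (0.49), Rasip1 (0.54), Cd93 (0.57), Plvap (0.58), Sema3g (0.67), Ccm2l (0.68) and Erg (0.73). Of these, 7 were in the endothelial lists used above, and Arhgef15, Sema3g and Ccm2l were in none. Of the 40 nearest genes, 16 were in a list. The lists were chosen with earlier results of these data known, so this overlap is not independent support. The likeness rests on 7 arrays, of which lung carries the highest and the cultures the lowest values.

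**Figure D5:**
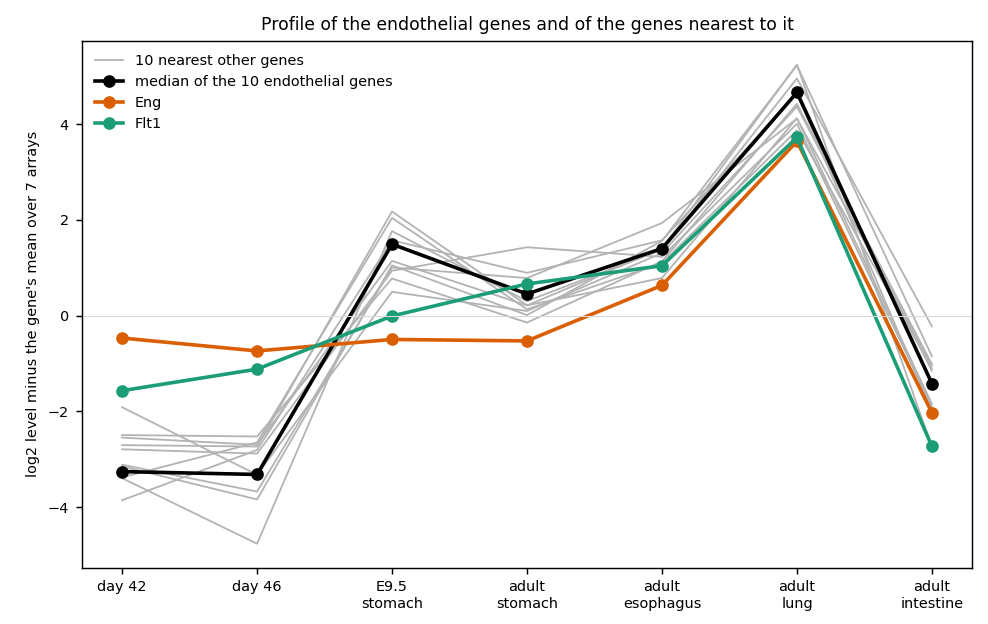
Log2 level minus the gene's mean over the 7 arrays (vertical axis) by array (horizontal axis) for the median of the 10 genes, the 10 nearest other genes, Eng and Flt1. The grey lines rise and drop with the black one, whereas Eng is nearly level over the cultures and both stomachs and Flt1 is higher on the cultures than the median profile.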

How the data were processed

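Total RNA of 7 mouse samples was labelled with Cy3 and hybridized to Agilent 4x44K arrays, 1 per group. The submitters' processing notes name Feature Extraction 10.5, and the file headers name 10.7.3.1 (both ES-derived arrays) and 10.5.1.1 (the rest). Per the file headers, the authors' scanner files hold a background-corrected intensity for every spot. The authors also deposited a log2 table shifted to the 75th percentile of each array, with 41265 values per sample (medians from -3.43 to -2.68). Its values correlated with the levels used here at 0.999 or above.

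Control spots and outlier spots (40 to 728 per array) were left out of 45018, and none was saturated. Log2 intensities were averaged per probe and centred on the 75th percentile of the array. A probe was above background if the scanner software said so for a share of 0.5 or more of its spots. Names came from the GRCm38.p6 gene table (names alone) for 24432 of 41174 probes. The brightest probe by mean stood for a gene. A gene not above background on 1 of 2 arrays has a bound, set by the higher of its own signal and the lowest signal above background there. It was left out if dim on both, and a bound that left no difference was set to 0. Counts use 2-fold, which is 1 on the log2 scale.

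The 10 genes and 20 other gene lists were chosen with earlier results of these data known. Tal1, Mmrn1 and Cd68 had no named probe. Named in the text are all 10 genes, up to 4 genes per list with the largest difference in a comparison, genes covered by a count of 5 or fewer, and the 10 nearest to the median profile. Further list genes (Vegfc, Aplnr, Efnb2, Flt4, Prox1 and the tissue markers) were named after their values were seen. Alternatives were median centring, quantile normalization, the deposited table, normexp (limma 3.58.1, offset 50, run on gMedianSignal and gBGMedianSignal, as no mean signal was present), no background filter, genes above background on both arrays only, the mean over probes and a 4-fold threshold. Python 3.11.15 and R 4.3.3 were used, and the counting was tested on simulated data. Precision is limited by the number of arrays. The 5-month culture of the series' design was not analysed here.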

Additional observations from a re-analysis of the deposited data

How the results depend on the processing

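No paired analysis was possible because each group had 1 array. Over all alternatives, 177 counts, medians and orders stayed within 1.5 times or the spread between probes and 12 did not. For single genes 527 differences stayed and 27 moved, none with a changed sign among called values. Some alternatives could move little. The deposited table holds the same signals, the filter on both arrays reuses the same gene values, and the mean over probes changes only genes with several probes. Normexp alone moved 18 single-gene differences and left 62, and it moved 4 counts or medians and left 21. Most of the counts and medians that moved belonged to the step from day 42 to day 46. There 1 gene was at least 2-fold higher and 0 lower. The higher count was 0 with median centring, quantile normalization, normexp or a 4-fold threshold and 3 with no filter on background. The lower count was 2 with median centring or quantile normalization. With normexp the median difference was -2.80 (from -3.97) for day 46 against adult stomach, -3.27 (from -4.52) for day 42 against E9.5 stomach and 5.13 (from 6.27) for lung against intestine, and the cause was not tested. In E9.5 against adult stomach, 0 genes (from 6) were higher at 4-fold, a stricter threshold. With median centring 3 of 7 arrays kept their place in the order of medians. Median centring took the median difference over all genes from 0.0 to -0.39 for day 46 against day 42, from 0.0 to 0.43 for day 42 against adult stomach, from -0.03 to 0.54 for E9.5 against adult stomach and from -0.04 to -0.34 for lung against intestine. Tie1, Pecam1 and 1 Cdh5 probe on day 42 were not above background, which limits their differences to bounds.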

Other observations

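Lymphatic genes, which mark another kind of endothelium, and cardiac genes were measured on the same arrays. Of 5 measured lymphatic endothelial genes, 2 were at least 2-fold higher on day 42 than in adult stomach, Reln (1.79) and Pdpn (1.32). On day 42, 1 was lower, Lyve1 (-1.87), and Prox1 and Flt4 were not above background. In E9.5 stomach 3 were higher and 1 lower than in adult stomach, and in lung 3 were higher and 0 lower. Flt4, which is on this list and among the receptors, was at -3.35 in E9.5 stomach and -3.13 in lung. Of all named genes, 20.2% were higher and 22.6% lower on day 42 than in adult stomach. The shares were 27.3% and 29.8% for E9.5 and 18.0% and 21.8% for lung, each against adult stomach. With normexp the lymphatic splits were 1 higher and 3 lower, 0 and 1, and 2 and 0. Of 7 cardiac muscle and endocardial genes, 5 were higher and 2 lower on day 42 than in adult stomach (median 7.6), and the median was 5.44 on day 46. The muscle genes Myh6 (8.81), Nppa (8.09), Tnnt2 (7.6) and Myl2 (at least 325-fold) were higher on day 42, and the muscle gene Actc1 differed by -1.37. Of the endocardial genes, Nfatc1 differed by -1.63 and Npr3 by 2.93 on day 42. Sele, an adhesion receptor of inflamed endothelium, was not above background on any of the 7 arrays.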
